A study of Mus musculus with 9 samples.

Results

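The 6 genes described here, of 18634 in the table, encode the proteins that store iron in brain cells and move it across membranes. They were chosen by name for these roles, and each was found in the table under its own symbol. Fth1 and Ftl1 encode the heavy and light chains of ferritin. Trf encodes transferrin, the iron carrier of plasma and interstitial fluid, and Tfrc its receptor. Slc40a1 encodes ferroportin, the iron exporter of the plasma membrane, and Cp encodes ceruloplasmin, a copper oxidase that acts beside it.

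The study compared brain cells of mice in 3 sleep states by single-cell RNA sequencing. Cortex, hypothalamus and brainstem were each sampled after normal sleep (NS), after 12 h of sleep deprivation (SD) and after deprivation with recovery sleep (RS), which gave 9 libraries with 1 library per group. All mice were wild-type C57BL/6 males (C57BL/6 J in the study's methods) aged 9 to 11 weeks and were collected at zeitgeber time 12, and each library was made from pooled mice. For recovery, the study's methods give 24 h, and the labels give 24 h in one place and 12 h in another. Tissue was dissociated with papain and passed over myelin removal beads before droplet capture. Cells of the table carry a library code but no group name, so libraries are numbered 1 to 9 in the order of their codes. Library 7 was identified as brainstem, normal sleep, because it holds all 1999 cell barcodes of that group in the part of the study's cell list held here, whereas each other library holds 5 to 13 of them. The other 8 libraries were not assigned to a region or sleep state, so their values are given per library and no sleep states were compared.

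Iron enters most brain cells when transferrin carrying ferric iron binds the transferrin receptor and the pair is taken up by endocytosis. Iron that is not used at once is oxidised by the ferritin heavy chain and held as a mineral core in the ferritin shell, in which the light chain favours core formation. Ferroportin is the known exporter of iron from vertebrate cells, and ceruloplasmin oxidises the exported ferrous iron so that transferrin can bind it. When cell iron is low, iron regulatory proteins bind hairpins in the mRNAs called iron-responsive elements. A hairpin in the 5′ UTR lets them block translation, while hairpins in the 3′ UTR let them protect the mRNA from decay. The counts described here measure mRNA only.

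The hairpins are shown because they are the sequence feature that groups these genes by their control. Each sequence below is 27 bases, read 5′ to 3′ on the strand of the gene from the GRCm38 genome, and the capitals mark the 6-base loop. The search motif was a loop of CAGTGN or CAGAGN closed by 5 paired bases, G with T pairs allowed, a C bulge before them and at least 3 further pairs among the 5 below. Transcripts were read on their own strand only.
Fth1, 5′ UTR, exon 1, chr19:9982733-9982759: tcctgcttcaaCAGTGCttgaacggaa
Ftl1, 5′ UTR, exon 1, chr7:45459780-45459806: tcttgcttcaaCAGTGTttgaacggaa
Slc40a1, 5′ UTR, exon 1, chr1:45925466-45925492: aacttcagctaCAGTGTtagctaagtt
Tfrc element 1, 3′ UTR, exon 19, chr16:32631161-32631187: tttatcagtgaCAGAGTtcactataaa
Tfrc element 2, 3′ UTR, exon 19, chr16:32631220-32631246: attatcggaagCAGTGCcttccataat
Tfrc element 3, 3′ UTR, exon 19, chr16:32631599-32631625: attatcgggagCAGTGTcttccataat
Tfrc element 4, 3′ UTR, exon 19, chr16:32631664-32631690: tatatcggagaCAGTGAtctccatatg
Tfrc element 5, 3′ UTR, exon 19, chr16:32631711-32631737: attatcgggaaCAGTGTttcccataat

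Of the 6 genes, 4 held a match, and Trf and Cp held none. The same motif was found in 185 of 21842 protein-coding genes (0.847%), and in a UTR of 93 genes (0.426%). Tfrc, with 5, was the 1 gene with at least 2 UTR matches in a single transcript. The Fth1 and Ftl1 elements were identical at 25 of 27 bases, and differed by C3T and C17T, with positions counted from 1 at the 5′ end and the Fth1 base given first. A match is a description of the letters and was not tested as a binding site.

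In GRCm38 the genes lie at chr19:9980598-9985098 on the plus strand (Fth1, ENSMUSG00000024661), chr7:45457944-45459884 on the minus strand (Ftl1, ENSMUSG00000050708), chr9:103204001-103230444 on the minus strand (Trf, ENSMUSG00000032554), chr16:32608920-32632794 on the plus strand (Tfrc, ENSMUSG00000022797), chr1:45908068-45926523 on the minus strand (Slc40a1, ENSMUSG00000025993) and chr3:19957054-20009145 on the plus strand (Cp, ENSMUSG00000003617).

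The table holds 29571 cells and 31468255 UMIs, the molecule counts of 10x Chromium libraries. Libraries hold 1522766 to 5488950 UMIs in 2575 to 3916 cells, with a median of 402 to 1055 UMIs per cell, and 549 of 29015 distinct barcodes occur in more than 1 library. Libraries 4 to 6 stand apart, because the pituitary hormone gene Gh takes 25.3% to 32.1% of their UMIs and at most 0.00755% in the others. Hemoglobin genes take 3.22% to 6.79% of the UMIs in libraries 7 to 9 and 0.0837% to 0.824% in libraries 1 to 6. Cell types come from the study's list for library 7, which names 1998 cells of 11 types. Their markers were mostly high where the names say so, with all of their 5 to 8 markers at least 2-fold higher in 8 types and 11 of 12 in both neuron types. The exception was the type listed as oligodendrocytes, where 1 of 8 markers passed. Levels below are UMIs of a gene per 1000000 UMIs (CPM), summed over the cells of a type or library, with exact 95% Poisson intervals that cover counting error only. A type is 1 library here, so no p-value is given. A 3′ UMI count is not divided by transcript length. Levels were used to compare a gene with itself across cells, and where different genes stand side by side, as in the ferritin shares and the ranks, the quantity is UMIs as counted.

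Macrophages had the most ferritin mRNA of the listed types. Fth1 reached 7334 CPM (6763 to 7940.1) in 67 macrophages, 1.38 times (1.26 to 1.51) the level in microglia. Ftl1 reached 9008 CPM (8374 to 9677) there, 2.15 times (1.97 to 2.33) the level in microglia. These are the resident phagocytes of brain borders and parenchyma, and both chains were led by them in the same order.

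Below these 2 types the chains parted. Fth1 was 5307 CPM in 549 microglia, 5197 in 230 arterial smooth muscle cells (VSMCA) and 4701 in 88 ependymocytes (EPC), the ciliated cells that line the ventricles. The first of these did not differ from the second beyond counting error (ratio 1.02, 0.960 to 1.09). Ftl1 was 4199 CPM in microglia but 1169 in VSMCA and 1338 in EPC. So smooth muscle had 2.29 times (2.13 to 2.46) the Fth1 level of endothelial cells, while endothelial cells had 2.16 times (1.92 to 2.43) the Ftl1 level of smooth muscle.

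Cells listed as pericytes, the mural cells of capillaries, had 3245 CPM of Fth1 and 2974 of Ftl1, and endothelial cells had 2267 and 2523. Only 115 of the 168 listed pericytes fell in the pericyte cluster, and these had 1252 CPM of Fth1 and 2539.6 of Ftl1. Astrocytes were low in both chains, at 1829.7 CPM of Fth1 and 882 of Ftl1. Microglia exceeded astrocytes 2.90-fold (2.58 to 3.27) in Fth1 and 4.76-fold (4.03 to 5.65) in Ftl1. Neurons were also low. Glutamatergic neurons had 1163 CPM of Fth1 (61 UMIs in 55 cells) and 877 of Ftl1 (46 UMIs), and the 18 other neurons had 1019 and 883. The hemoglobin-expressing vascular cells (HbVC), with 19 cells, had 1137 CPM of Fth1 and 1934 of Ftl1. Of these 19 cells, 3 fell in the main endothelial cluster, 10 in a second endothelial cluster and 3 in the cluster marked by hemoglobin genes. The 94 cells of the hemoglobin cluster in library 7 had 327 CPM of Fth1 (261 to 404) and 949 of Ftl1 (835 to 1075). From highest to lowest type the spread was 7.20-fold (4.99 to 10.8) for Fth1 and 10.3-fold (7.62 to 14.2) for Ftl1. Among the lowest 3 types of Fth1, and among the lowest 5 of Ftl1, neighbours in the order did not differ beyond counting error.

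**Figure D1:**
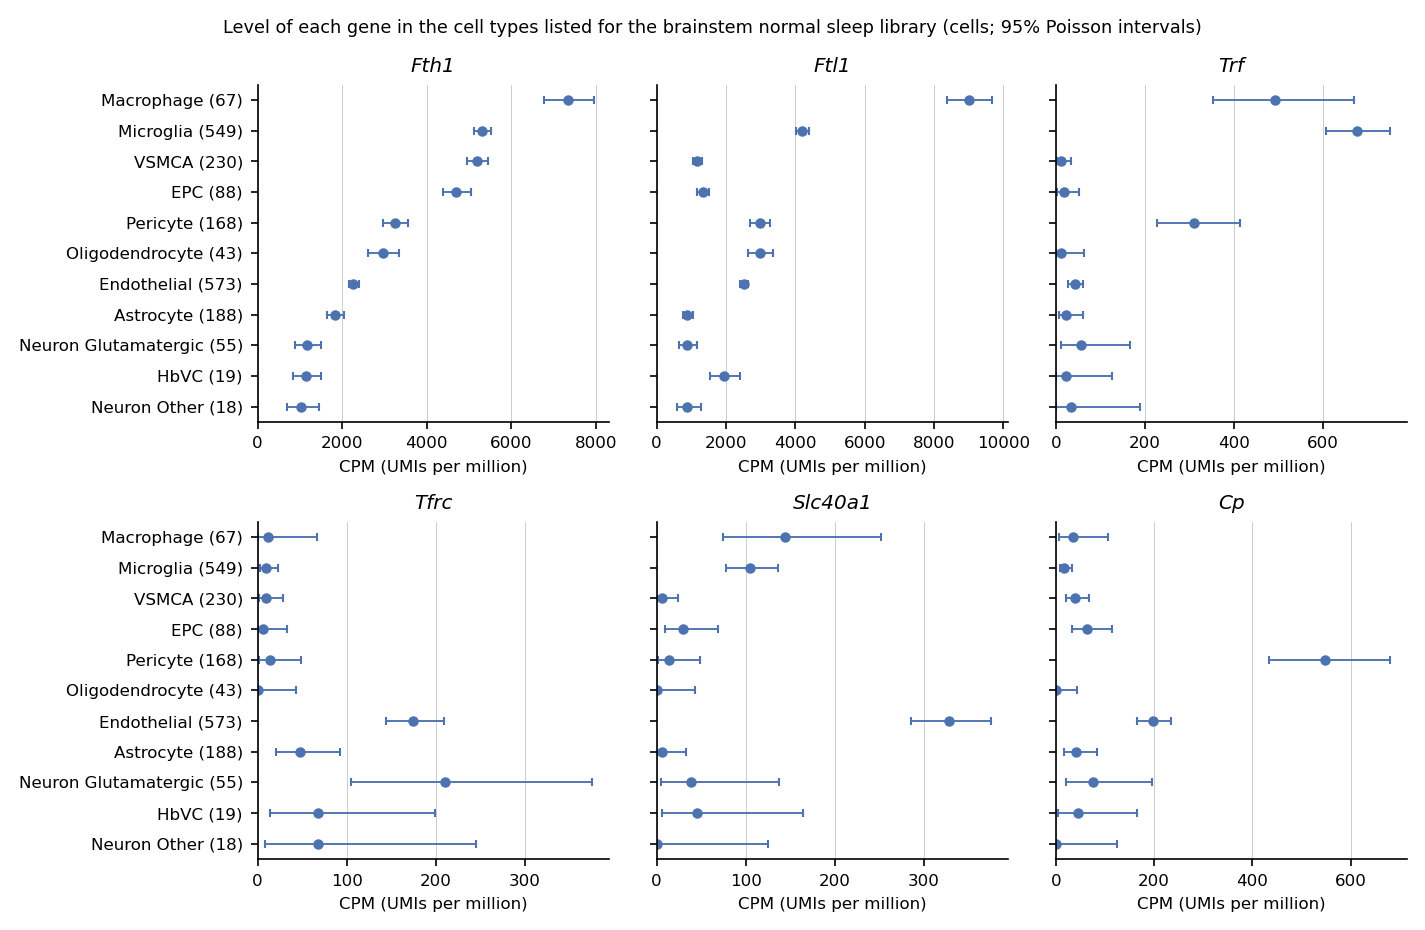
Level of each gene, in CPM, in the 11 cell types listed for the brainstem normal sleep library, with the number of cells in parentheses after each type. Points are summed counts and bars exact 95% Poisson intervals; Fth1 and Ftl1 peak in macrophages, Trf in microglia, Slc40a1 in endothelial cells and Cp in pericytes, and the intervals of the 2 highest Tfrc levels overlap.

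Single cells showed the same contrast. At least 1 UMI of each chain was found in 473 of 549 microglia (86.2%) and 58 of 67 macrophages (86.6%), against 67 of 188 astrocytes (35.6%) and 14 of 55 glutamatergic neurons (25.5%). Neither chain was found in 23 glutamatergic neurons (41.8%) and in 6 microglia (1.09%). The median macrophage had 8 UMIs of each chain, whereas the median smooth muscle cell had 5 of Fth1 and 1 of Ftl1. Depth differs between types, with median totals of 1133 UMIs in macrophages, 796 in microglia, 771 in astrocytes and 718 in glutamatergic neurons. After each cell was thinned to 500 UMIs, Fth1 was found in 77.3% of macrophages, 84.9% of microglia, 58.4% of astrocytes and 34.5% of glutamatergic neurons.

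The balance of the chains can be read as the heavy-chain share, the percent of Fth1 among Fth1 and Ftl1 UMIs. The heavy chain carries the oxidase site, and tissues are known to differ in their balance. Smooth muscle was highest at 81.6% (79.9 to 83.3, exact Clopper-Pearson interval), followed by EPC at 77.8% (75.2 to 80.3) and astrocytes at 67.5% (63.0 to 71.7). Microglia stood at 55.8% (54.4 to 57.2). Listed pericytes stood at 52.2%, which includes 62.3% (58.3 to 66.2) in the 49 of them that fell in a cluster of fibroblast or leptomeningeal genes and 33.0% (27.8 to 38.5) in the 115 that fell in the pericyte cluster. Endothelial cells at 47.3% (45.6 to 49.1), macrophages at 44.9% (42.2 to 47.6) and HbVC at 37.0% (28.9 to 45.8) had more Ftl1 than Fth1 UMIs, as did the 115 pericytes. Macrophages and microglia, the 2 types with the most ferritin, differed in balance by more than counting error in this list. Both chains together took 1.63% of all UMIs in macrophages, 0.951% in microglia and 0.190% in other neurons.

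The share was also read in classes of cells clustered without the 6 genes and named by marker genes, in every library where a class had at least 20000 UMIs. In the microglia class it was 51.8% to 59.4% over 9 libraries, in the astrocyte class 67.3% to 73.8% over 9, and in the smooth muscle class 81.0% to 88.7% over 8. These 3 ranges did not overlap. The neuron class, at 69.3% to 85.5% over 9 libraries, overlapped the astrocyte and smooth muscle ranges. The EPC class, at 80.0% to 83.4% over 6, overlapped the smooth muscle range. The pericyte class (43.3% to 65.3% over 6) and the fibroblast or leptomeningeal class (48.5% to 64.8% over 9) overlapped the microglia range. The macrophage class ranged from 42.8% to 59.2% over 7 libraries, overlapping the microglia range. In libraries 4 to 6 the intervals of these 2 classes overlapped, at 51.3%, 52.4% and 59.2% in macrophages against 51.8%, 56.7% and 55.3% in microglia. The endothelial class ranged from 46.9% to 67.4% over 8.

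Light-chain counts carry a limit of their own. The table also has a row for Gm10116, now named Ftl1-ps1 and called a pseudogene by RefSeq, at chr13:74399694-74407346 (ENSMUSG00000062382). Its transcript of 938 bases aligned with the 968-base Ftl1 transcript over 910 bases with 906 identical (99.6%), so reads of one can be counted for the other. Gm10116 took 2.55% to 7.37% of the UMIs of the pair in libraries 1 to 6 but 16.8% to 21.7% in libraries 7 to 9. The same step was present inside the microglia class, at 1.37% to 6.41% and 17.8% to 23.3%. Among the 11 listed types of library 7 the share stayed between 16.1% and 23.0%, so it hardly changed the order of types. Counted as light chain, it lowered the heavy-chain share from 55.8% to 49.9% in microglia and from 81.6% to 77.8% in smooth muscle.

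**Figure D2:**
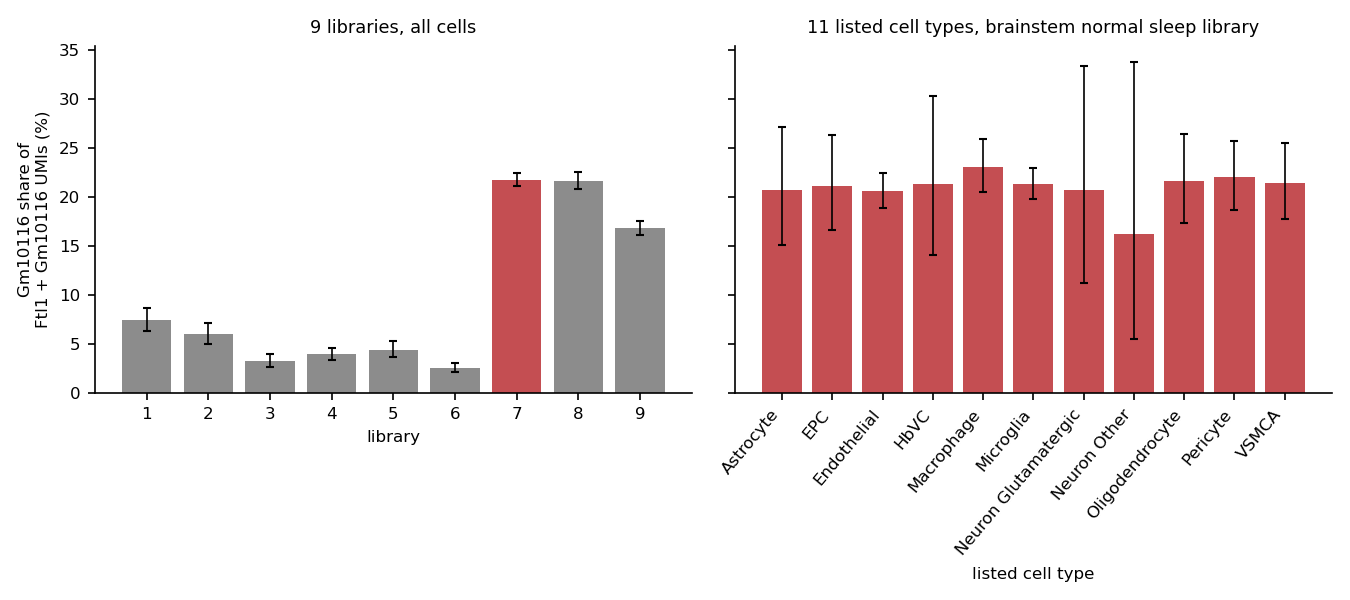
Percent of Gm10116 among Ftl1 and Gm10116 UMIs, by library on the left and by listed cell type of the brainstem normal sleep library (red) on the right, with exact 95% Clopper-Pearson intervals. Libraries 7 to 9 sit at 16.8% to 21.7% and libraries 1 to 6 at 2.55% to 7.37%, while the types lie between 16.1% and 23.0%.

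Transferrin mRNA was concentrated in microglia and macrophages. Trf reached 676 CPM (606 to 752) in microglia, with 343 UMIs in 222 of 549 cells (40.4%), and 494 CPM (354 to 669.8) in macrophages, with 41 UMIs in 27 of 67 cells (40.3%). The ratio of 1.37 (0.989 to 1.94) does not separate the 2 types. Microglia held 72.2% (67.9 to 76.2) of the listed Trf UMIs and 22.6% of all listed UMIs.

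Listed pericytes followed at 311 CPM, of which 43 of 46 UMIs lay in 49 cells of a fibroblast or leptomeningeal cluster, and the other types were far lower. Endothelial cells had 43.2 CPM, in 4.71% of cells, and microglia exceeded them 15.7-fold (10.6 to 23.9). Astrocytes had 23.5 CPM from 4 UMIs, and microglia exceeded them 28.7-fold (11.1 to 106). Smooth muscle, with a deeper median of 1319.5 UMIs per cell against 796 in microglia, had a Trf UMI in 1.74% of cells. After thinning to 500 UMIs the shares were 27.9% in microglia and 0.870% in smooth muscle.

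Oligodendrocytes are known as a main source of transferrin in the brain, but the cells listed as such do not serve to read it. They had 1 Trf UMI in 43 cells (11.5 CPM). Of their 8 markers Cldn11 was high, with 63 UMIs in 22 cells, whereas Mbp, which encodes myelin basic protein, had 1 UMI and Mag, Mobp, Ermn and Cnp had 0, which at a floor of 3 counts allows a UMI in up to 6.98% of cells. Of the 43 cells, 39 fell in a cluster marked by fibroblast and leptomeningeal genes, and Dcn, a proteoglycan gene of fibroblasts, had 44 UMIs in 9 of them. Over all 29571 cells, 6 had at least 3 of the 7 other myelin markers, and those 6 had 0 Trf UMIs. The level of Trf in myelin-forming cells is therefore not given here.

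The listed pericytes were also of 2 kinds. Of 168, 115 fell in the cluster marked by pericyte genes and 49 in the fibroblast or leptomeningeal cluster, where Dcn had 300 UMIs against 3. Trf was 680.1 CPM (43 UMIs) in those 49 cells and 36.5 CPM (3 UMIs) in the 115, a ratio of 18.7 (5.97 to 94.0). Fth1 was 5915 against 1252 CPM, a ratio of 4.73 (3.79 to 5.94), and Ftl1 was 3574 against 2539.6 CPM, a ratio of 1.41 (1.16 to 1.71). The pericyte values of Trf and Fth1 thus rest on the smaller, Dcn-bearing set. Vtn, a pericyte marker, had 331 UMIs in the 49 cells and 647 in the 115.

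Among the listed types transferrin receptor mRNA was highest in glutamatergic neurons and endothelial cells. Tfrc was 209.7 CPM (105 to 375) in glutamatergic neurons, from 11 UMIs in 11 of 55 cells (20%), and 174 CPM (144 to 209) in endothelial cells, from 113 UMIs in 83 of 573 cells (14.5%). The receptor carries transferrin iron across the blood-brain barrier and is also used by neurons. The ratio of 1.20 (0.584 to 2.24) does not separate these types beyond counting error, and with marker-named clusters of library 7 in place of the listed types it was 0.454, with endothelial cells the higher. By summed counts endothelial cells held 75.8% (68.2 to 82.5) of the listed Tfrc UMIs, against 28.9% of all listed UMIs.

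The 18 other neurons had 67.9 CPM of Tfrc (2 UMIs) and HbVC had 68.2 CPM (3 UMIs). Astrocytes had 47.1 CPM (8 UMIs), 3.70-fold (1.82 to 8.78) below endothelial cells. Microglia had 9.86 CPM (5 UMIs), and a UMI was found in 0.911% of them, at a median depth of 796 UMIs against 910 in endothelial cells. Endothelial cells exceeded microglia 17.7-fold (7.36 to 55.5) and listed pericytes, with 13.5 CPM from 2 UMIs, 12.9-fold (3.49 to 108). The gap was smaller between classes, at 26.0 to 60.5 CPM over 6 libraries in pericytes and 139.6 to 281 CPM over 8 in endothelial cells. The pericyte class also held 51 cells listed as endothelial. In the 43 cells listed as oligodendrocytes the count was 0, which at the floor of 3 counts allows up to 34.6 CPM and a UMI in up to 6.98% of cells, so endothelial cells, at their measured level, were at least 5.03-fold higher.

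Ferroportin mRNA was highest in endothelial cells. Slc40a1 was 328 CPM (286 to 376) there, from 213 UMIs in 149 of 573 cells (26.0%), 2.27 times (1.27 to 4.47) the macrophage level of 145 CPM (12 UMIs). Microglia had 104 CPM (53 UMIs in 8.93% of cells), which macrophages did not exceed beyond counting error (1.38, 0.673 to 2.62). Endothelial cells exceeded microglia 3.14-fold (2.32 to 4.33). Within the listed endothelial cells, 414 fell in the main endothelial cluster and 95 in a second one that also had Cldn5, a tight junction gene (1436 CPM). Slc40a1 was 383 against 168 CPM in them (ratio 2.28, 1.24 to 4.65), and Tfrc 214 against 76.4 CPM (ratio 2.80, 1.16 to 8.79). A further 51 cells listed as endothelial fell in the pericyte cluster, with a UMI of Vtn in 84.3% of them and 134 CPM of Slc40a1, and 11 fell in the microglia cluster. Both the receptor and the exporter had most of their listed UMIs in endothelial cells, with 72.9% (67.5 to 78.0) for Slc40a1.

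In each of the other listed types the exporter rested on at most 5 UMIs. Listed pericytes had 2 (13.5 CPM). In library 7 the pericyte class had 88.7 CPM (59.4 to 127), against 103 CPM in the microglia class. Pooled over libraries of unequal class sizes, the order turned, at 129.8 CPM (110 to 152) against 86.2 CPM (75.2 to 98.5). In the pericyte cluster, the 115 cells listed as pericytes had 0 Slc40a1 UMIs, which at the floor of 3 counts allows up to 36.5 CPM. The 51 cells listed as endothelial there had 12 UMIs. Astrocytes had 1 UMI in 188 cells (5.88 CPM), and the ratio of endothelial cells to them was 55.8 (9.91 to 2215). Smooth muscle had 6.49 CPM, with a UMI in 0.870% of cells. The 43 cells listed as oligodendrocytes and the 18 other neurons had 0, which at the same floor allows up to 34.6 and 102 CPM.

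Among the listed types ceruloplasmin mRNA was highest in pericytes. Cp was 548 CPM (435 to 681) there, from 81 UMIs in 55 of 168 cells (32.7%), 2.77 times (2.07 to 3.69) the 197 CPM of endothelial cells (128 UMIs in 15.9% of cells). With marker-named clusters in place of the listed types that ratio was 1.50. Cp differed less than Trf between the 2 kinds of listed pericytes, at 743 CPM in the Dcn-bearing cells and 413 in the others (ratio 1.80, 1.13 to 2.88). Over all libraries the fibroblast or leptomeningeal class had 426 CPM (386 to 469) and the pericyte class 296 (266 to 328). That order did not hold in every library. In library 7 their intervals overlapped, at 321 CPM (257 to 397) and 297 CPM (241 to 362). In library 2 the fibroblast or leptomeningeal class had 89.6 CPM, below all 6 values of the pericyte class (130.1 to 379.9 CPM). Endothelial cells held 49.8% and pericytes 31.5% of the listed Cp UMIs, with 28.9% and 6.58% of all listed UMIs.

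Astrocytes, the cell type best known for a membrane-anchored ceruloplasmin, had 41.2 CPM (7 UMIs), and pericytes exceeded them 13.3-fold (6.17 to 34.1). The counts do not tell the secreted from the anchored form. EPC had 64.6 CPM, smooth muscle 39.0 CPM and microglia 17.7 CPM, with a UMI in 1.28% of microglia at a median depth of 796 against 726.5 in pericytes. After thinning, a Cp UMI was found in 18.3% of pericytes and 0.554% of microglia.

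Each type was also set against all other listed cells, with 10 CPM added to both levels and types of at least 50 cells used. All 6 genes were at least 2-fold higher in some type, as were 71.8% of 7038 genes of at least 50 CPM in some type, so that count says little by itself. In macrophages 3 of 6 genes were at least 2-fold higher, against 6.68% of genes: Ftl1 3.63-fold, Trf 2.39-fold and Fth1 2.04-fold. In endothelial cells another 3 of 6 were, against 10.5% of genes: Slc40a1 5.70-fold, Tfrc 5.67-fold and Cp 2.29-fold. At this cut, which Fth1 only just passed, the storage and carrier genes and the receptor and exporter genes fell in different types.

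Single genes passed in 3 further types. Trf was 7.99-fold higher in microglia, where 9.29% of genes passed, Cp 5.94-fold in pericytes (7.91% of genes) and Tfrc 3.02-fold in glutamatergic neurons (20.7% of genes). Astrocytes were low in 5 of 6 genes at a threshold of 0.5-fold, against 26.0% of genes, with 0.11-fold for Slc40a1, 0.14-fold for Trf, 0.31-fold for Ftl1, 0.39-fold for Cp and 0.47-fold for Fth1. Tfrc, at 0.73-fold, was the exception in astrocytes. Smooth muscle was also low in 5 of 6, against 28.3% of genes, with Fth1 at 1.49-fold the exception. EPC and glutamatergic neurons were low in 4 of 6, against 22.9% and 39.4% of genes.

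Over whole libraries all 6 genes varied. The 2 ferritin genes varied least over all 9 libraries. In CPM, Fth1 was 2680.0, 2509.6, 2327, 2301, 2614, 2182, 3548, 3369 and 3136 in libraries 1 to 9. Ftl1 was 1206, 949, 767, 1069, 1133, 905, 2527, 1997 and 1743. Both were higher in libraries 7 to 9 than in any of the others, with a ratio of highest to lowest library of 1.63 (1.59 to 1.67) for Fth1 and 3.29 (3.16 to 3.43) for Ftl1. At least 1 UMI was found in 65.3% to 86.1% of the cells of a library for Fth1 and in 37.7% to 79.2% for Ftl1. They ranked 26th and 49th of 18634 genes by total UMIs.

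Trf was 79.5, 40.9, 25.6, 21.4, 26.9, 6.01, 186, 132 and 137 CPM in the same order, from 33 to 825 UMIs, a ratio of 30.9 (21.8 to 45.1) between libraries 7 and 6. Slc40a1 was 23.6, 24.8, 25.3, 9.08, 9.43, 3.64, 117, 86.0 and 73.2 CPM, from 20 to 521 UMIs, a ratio of 32.2 (20.6 to 53.1). Both followed the order of library sets, with libraries 7 to 9 above libraries 1 to 3 and these above libraries 4 to 6, except that Trf in library 5 was above library 3.

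Cp was 13.8, 30.5, 30.5, 15.4, 33.9, 13.1, 102, 133 and 127 CPM, with a ratio of 10.2 (7.91 to 13.2) between libraries 8 and 6. Tfrc was 48.6, 50.2, 63.7, 12.4, 17.4, 5.65, 62.1, 45.0 and 43.7 CPM, with a ratio of 11.3 (7.74 to 17.0) between libraries 3 and 6. Tfrc was the gene whose levels in libraries 1 to 3 and 7 to 9 overlapped, and without libraries 4 to 6 its ratio was 1.46, against 1.52 for Fth1. With 10 CPM added, 5 of the 6 genes differed at least 2-fold between the highest and lowest library, as did 58.0% of 9829 genes tested. Without libraries 4 to 6 the ratio was 7.25 for Trf and 4.96 for Slc40a1, and among cells of at least 1000 UMIs it was 5.52 for Ftl1, 53.5 for Trf and 26.9 for Cp.

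**Figure D3:**
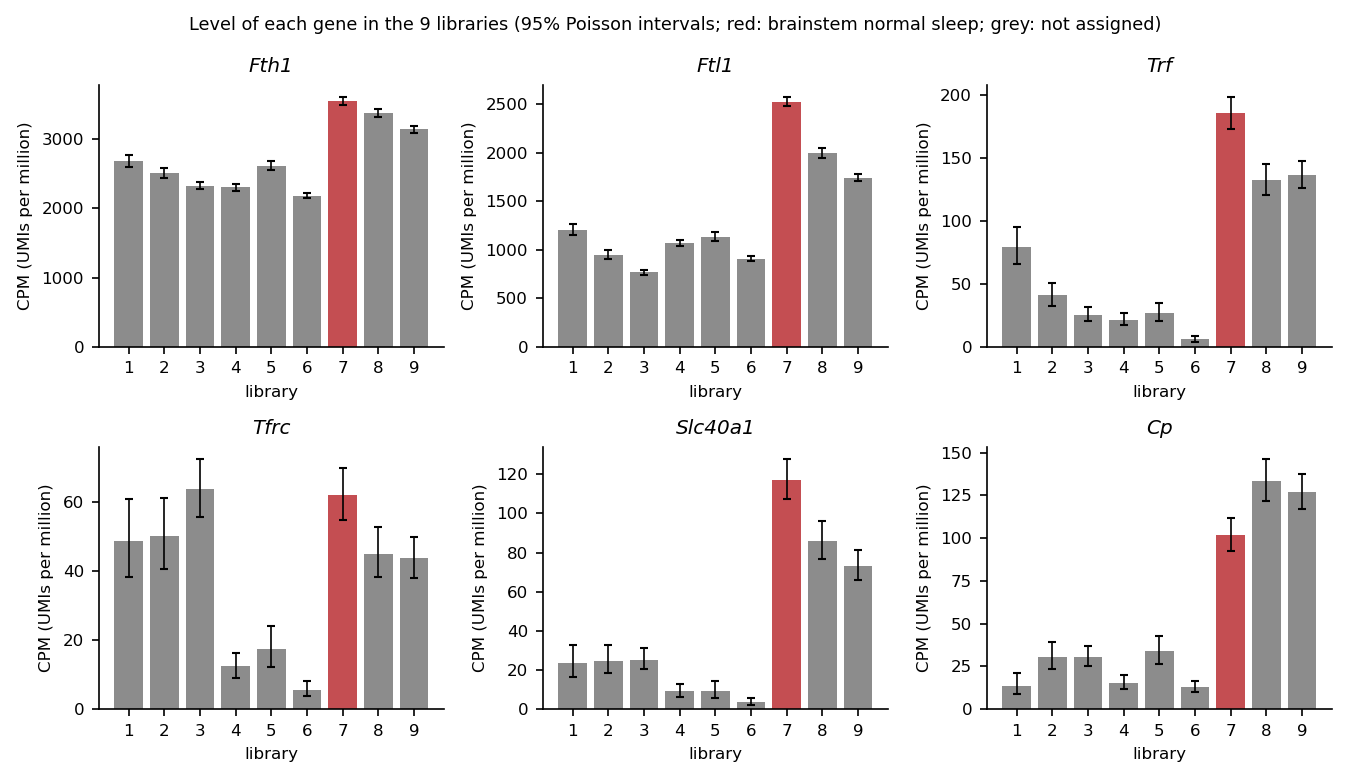
Level of each gene in CPM over all cells of each of the 9 libraries, with exact 95% Poisson intervals (red, brainstem normal sleep; grey, not assigned). Libraries 7 to 9 are highest for 5 genes, and Tfrc is low in libraries 4 to 6 only.

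The makeup of the libraries also differed. The microglia class made up 18.0%, 8.06%, 5.61%, 3.18%, 3.95%, 0.664%, 26.4%, 20.4% and 14.6% of the cells of libraries 1 to 9, and the endothelial class 0.383% to 6.78% in libraries 1 to 6 and 10.7% to 19.3% in libraries 7 to 9. The neuron class made up 23.0%, 27.2%, 38.4%, 8.62%, 14.3%, 4.39%, 3.35%, 3.64% and 2.40%. These are shares of cells, and classes differ in UMIs per cell, so they do not give a class's part of a library's UMIs. Whether makeup accounts for any of these levels was not tested. In whole-library sums, more cells of a type and more RNA per cell cannot be told apart.

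Within the microglia class Trf was 558, 458, 422, 410.3, 359, 103, 639, 533 and 517 CPM. Library 6 rested on 3 UMIs in 26 cells, and the other 8 libraries spanned 359 to 639 CPM, against 21.4 to 186 CPM in their whole libraries. Fth1 spanned 3049.6 to 5141 CPM in the same class. Slc40a1 in the endothelial class was 288, 207, 267, 307 and 202 CPM in libraries 1 to 5 and 388, 341 and 371 in libraries 7 to 9, where library 6 had too few UMIs. All 5 values of libraries 1 to 5 lay below those of libraries 7 to 9. Their intervals overlapped those of libraries 8 and 9, and the interval of library 2 (123 to 327) lay below that of library 7 (347 to 433).

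Tfrc in the endothelial class was 139.6 to 281 CPM over 8 libraries, with 3 to 184 UMIs behind a value. In the neuron class Tfrc was lower, at 24.0 to 101 CPM over 9 libraries. Cp in the endothelial class was 198 to 292 CPM in 7 libraries and 504 CPM (326 to 744) in library 5. In the pericyte class Cp was 130.1, 140.3 and 313 CPM in libraries 1 to 3 and 297, 379.9 and 278 in libraries 7 to 9.

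**Figure D4:**
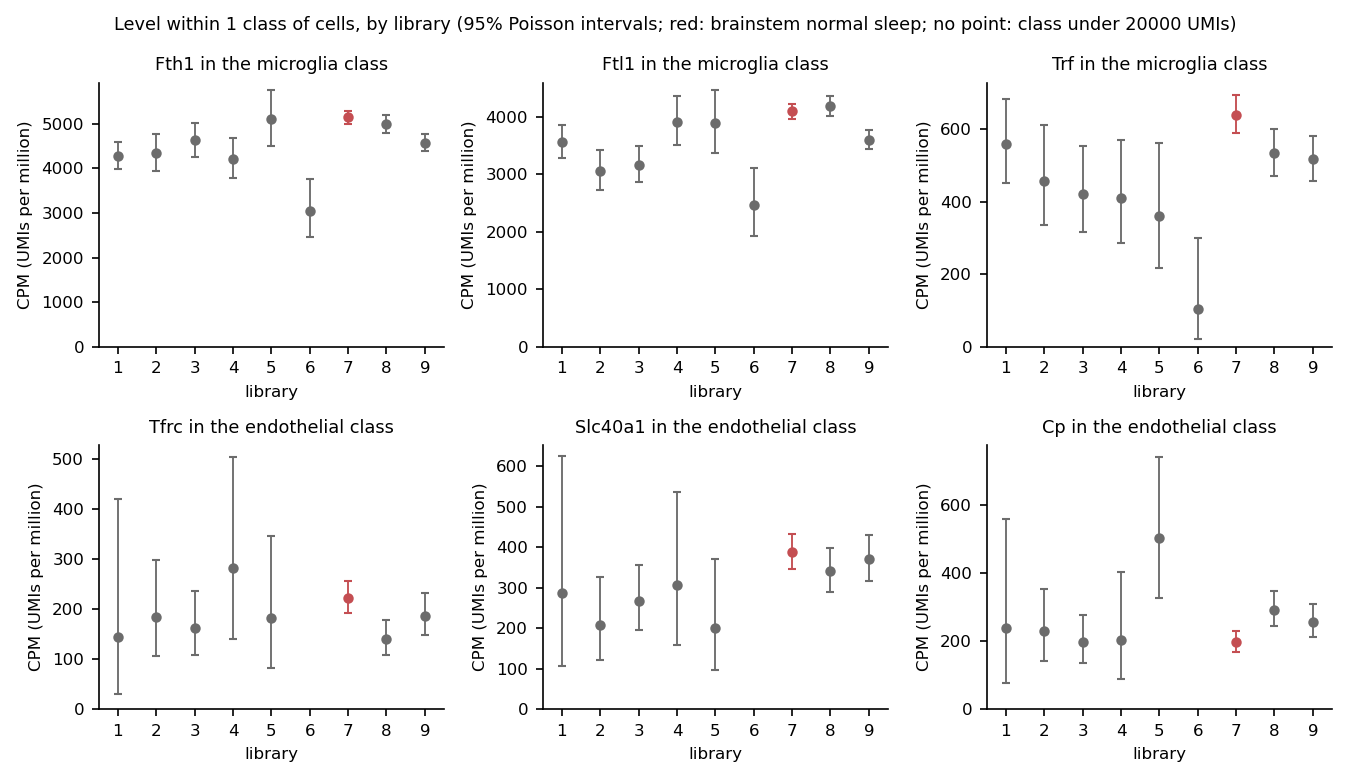
Level in CPM within 1 class of cells by library, for Fth1, Ftl1 and Trf in the microglia class and Tfrc, Slc40a1 and Cp in the endothelial class, with exact 95% Poisson intervals (red, brainstem normal sleep). A library with under 20000 UMIs in the class has no point; Trf in microglia lies between 359 and 639 CPM outside library 6.

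The wider pathway was read from a list of 45 further iron and heme genes, of which 39 are in the table and 18 reached 50 CPM in a listed type of at least 50 cells. Of these 18, 14 were at least 2-fold higher in some type, a share to be set against the 71.8% of all genes. By role these were 7 of 7 uptake and reduction genes, 7 of 8 heme and hemoglobin genes, 0 of 2 handling genes and 0 of 1 mitochondrial gene, and no export gene reached the level.

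Among uptake genes, Slc22a17, a lipocalin receptor, was highest in glutamatergic neurons at 839 CPM (44 UMIs), with 6.17 CPM in endothelial cells. Lrp1, an endocytic receptor that also takes up heme bound to hemopexin, was highest in astrocytes at 335 CPM. Steap2, a metalloreductase, was highest in glutamatergic neurons at 153 CPM from 8 UMIs. These 3 were named for their level, and other uptake genes were led by other types, such as Hfe, whose product binds the transferrin receptor, by macrophages at 132 CPM (11 UMIs).

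Among heme genes, Abcg2, an efflux transporter of the blood-brain barrier that can carry porphyrins, was 1354 CPM in endothelial cells and at most 312 CPM in the other types. Alas1, the first enzyme of heme synthesis in most cells, was also highest in endothelial cells at 273 CPM. Its erythroid counterpart Alas2 was highest in HbVC at 751 CPM from 33 UMIs. Pcbp2 and Pcbp1, chaperones that hand iron to ferritin, were more even, with highest levels of 390.1 CPM in endothelial cells and 188 CPM in smooth muscle. Fbxl5, which controls the stability of an iron regulatory protein, peaked at 136 CPM in other neurons from 4 UMIs. Iscu, the scaffold for iron-sulfur clusters, was highest in smooth muscle at 432 CPM, and the mitochondrial carriers Slc25a37 (91.0 CPM in HbVC) and Slc25a28 (67.9 CPM in other neurons) rested on 4 and 2 UMIs. Of the export genes, Heph, a relative of ceruloplasmin, peaked at 23.5 CPM (4 UMIs) in astrocytes, and Bmp6 and Tmprss6 had 0 UMIs in the listed cells, which allows up to 1.33 CPM.

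Genes with the most similar pattern were ranked by Pearson's r of log2(CPM + 10) over the 8 listed types of at least 50 cells, among 7038 genes. The points share 1 library and its depth, and r is given as a description. Ftl1 was most like Gm10116 (0.999), Stab1 (0.987) and Crlf2 (0.973), and Fth1 like Cebpb (0.944), Rpl10a (0.939) and Npm1 (0.929). Trf was most like Ebp (0.974), Abca9 (0.966) and Snrpc (0.952), and Tfrc like Spock2 (0.969), Ttc1 (0.963) and Dnm3 (0.962). Slc40a1 was most like Ly6e (0.960), Lmo2 (0.952) and Srgn (0.938), and Cp like Adm (0.936), Pdzd2 (0.932) and Gm20696 (0.929). Among the 6 genes themselves, Ftl1 and Trf were most alike (0.841), ahead of the 2 ferritin chains (0.661), and Fth1 and Tfrc were opposed (-0.86). Slc40a1 was more like Ftl1 (0.631) than like Tfrc (0.313).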

How the data were processed

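Per gene and per cell, the authors deposited UMI counts as whole numbers, not normalized, in 1 table made with Cell Ranger 2.2.0 on GRCm38. R 3.5.3 is also named in the submitters' processing notes, and the annotation release is not given in the sources used here. All columns of cells were used (0 columns of per-sample values were left out). Depth per library is given with the results.

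Counts were summed per library, listed cell type and class, and given as CPM with exact Poisson intervals, shares of cells with Clopper-Pearson intervals and ratios with conditional binomial intervals, all at 95% and for counting error only, since UMIs share cells and animals. Beside a count of 0 stands the value of 3 counts as the floor, which is lower than the upper bound of the 2-sided exact interval. With 1 library per group there was no test, and 8 libraries were in no group. Cells were thinned to 500 UMIs for shares. Clusters used 2000 variable genes without the 6 genes and the pathway list (Alas2, a marker, excepted), 13 principal components, 20 neighbours and Leiden resolution 1 (scanpy 1.11.5). They were named where at least 3 markers were at least 2-fold higher and in at least 10% of cells. Scrublet, run in scanpy, called 143 of 29571 cells (0.484%), too few to be relied on, so all cells were kept. Hairpins were searched with Python 3.11.15 in GENCODE transcripts. Scripts were tested on simulated data.

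The 6 genes and all lists were chosen with earlier results of these data known. Named pathway genes are the 3 with the highest level in any listed type within each role, and the most similar genes are the 3 with the highest r. Dcn, Vtn, Cldn5 and Hfe were named after their values were seen. The alternatives tried were cells of at least 1000 UMIs only, other totals and size factors, means over cells, a subtracted background, clusters in place of listed types, leaving out cells with high doublet scores, and other pseudocounts and minimum levels.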

Additional observations from a re-analysis of the deposited data

Results flagged for a closer look

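Gm10116, the near-identical gene that stands beside Ftl1 in the table, carried 3117 UMIs in the brainstem normal sleep library, 21.7% of the UMIs of the pair there. It is listed here because it lies outside the 6 genes and its count is far above the limit that a count of 0 allows. In the other 8 libraries its share was between 2.55% and 21.6%. Which reads of the pair belong to which gene was not tested.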

How the results depend on the processing

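Of 193 values recomputed under an alternative, 119 moved by less than their counting interval and 74 moved by more. Only the ratio of the leading type to the next could be read for a reversal. Where it was beyond counting error, for Fth1, Ftl1, Slc40a1 and Cp, it did not reverse. The order of the 2 highest Tfrc types, which was within counting error, did reverse. With Gm10116 counted as light chain, the heavy-chain share fell to below equal counts in 2 types. It went from 55.8% to 49.9% (48.5 to 51.2) in microglia and from 52.2% to 46.0% in listed pericytes. The causes were not tested. For the ratio of highest to lowest library, a minimum of 1000 UMIs per cell gave 1.93 (Fth1), 5.52 (Ftl1), 53.5 (Trf) and 26.9 (Cp). Totals without mitochondrial, hemoglobin and hormone genes gave 1.67 (Fth1), 3.60 (Ftl1), 21.7 (Trf) and 7.72 (Tfrc), median-of-ratios size factors 1.92 (Fth1) and 4.14 (Ftl1), and means over cells 3.06 (Ftl1). Alternatives chosen after seeing the data were leaving out libraries 4 to 6, with 1.52 (Fth1), 7.25 (Trf), 1.46 (Tfrc) and 4.96 (Slc40a1), and counting Gm10116 as Ftl1, with 4.07 (Ftl1) and heavy-chain shares of 77.8% in smooth muscle and 52.4% in library 7. For the leading type over the next, cells of at least 1000 UMIs gave 1.23 (Fth1) and 1.94 (Ftl1), means over cells 2.34 and a subtracted background 2.45 (both Ftl1), and clusters of library 7 in place of listed types 0.454 (Tfrc) and 1.50 (Cp), so Tfrc was then highest in endothelial cells. The heavy-chain share became 25.6% in HbVC with clusters, and 80.1% in library 3 and 61.6% in library 7 with at least 1000 UMIs. No paired analysis was possible because each group is 1 library and 8 libraries were not assigned. Types with few cells (18 other neurons, 19 HbVC) limit what depth can show.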

Other observations

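The class marked by fibroblast and leptomeningeal genes, the cells of the brain's outer coverings, had mRNA of both Trf and Cp. Over all libraries its 840 cells had 329 CPM of Trf (294 to 367) and 426 CPM of Cp (386 to 469), and 30.5% of them had a Cp UMI. By library Trf there ranged from 68.1 CPM in library 3 to 478 CPM in library 9, and Cp from 89.6 CPM in library 2 to 642 CPM in library 9. The macrophage class, with 691 cells in all, had 494 CPM of Trf and 75.2 CPM of Cp. The choroid plexus class, which makes cerebrospinal fluid, was large enough in library 9 only, where Trf was 138 CPM.

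In the class marked by tanycyte or pituicyte genes, Trf was 423 CPM in library 9, from 37 UMIs in 9 of 70 cells (12.9%), and at most 27.5 CPM in the 4 other libraries where the class had enough UMIs. In the endothelial class, Fth1 was 5041 CPM (4435 to 5706) in library 5 and 2036 to 3837 CPM in the 7 other libraries, and Cp was also highest in library 5. In macrophages Hmox1, which breaks down heme, and Cd163, a receptor for hemoglobin with haptoglobin, had 11 UMIs each (132 CPM), while microglia had 9.86 CPM of Hmox1. Hmox1 and Cd163 were named after their values were seen.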
